A study of Mus musculus with 6 samples.

Results

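Sphingolipids are built from ceramide, and the genes described here make, modify and break down ceramide and its products or sense the signalling lipid sphingosine 1-phosphate (S1P). The 43 genes were chosen by name from the branches of ceramide synthesis, sphingomyelin, glycosphingolipids and S1P, out of 55487 genes counted by the authors, and 37 of them were expressed well enough to be tested. The transcripts came from primary mouse microglia, the resident immune cells of the brain, in which the nuclear receptor REV-ERBα (gene Nr1d1) was to be deleted. The study asked how the loss of this receptor changes the transcriptome of microglia, and its authors looked among the transcripts for enzymes of sphingomyelin metabolism.

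Both groups came from cortices of littermate pups at postnatal days 1 to 3, with loxP sites around part of Nr1d1 on both alleles (Nr1d1fl/fl). The 3 Cre+ cultures carried CAG::CreERT2 and the 3 Cre- cultures did not. CreERT2 is a recombinase that enters the nucleus once 4-hydroxytamoxifen (4-OHT) is bound, and the CAG promoter is active in nearly all cell types, so recombination was not limited to microglia. All 6 cultures received 1.5 μM 4-OHT for 2 days, so that a drug effect is common to both groups, while a toxic or other effect of an active Cre cannot be told apart from the loss of Nr1d1. The methods of the study give a shorter exposure for this line than its labels do. The cells had been shaken off mixed glial cultures grown with GM-CSF, a growth factor for myeloid cells, and their RNA was amplified from a low input with a SMARTer kit. The labels number the cultures 1 to 3 in each group and do not say which pups they came from, so the p-values measure the spread between these cultures.

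Synthesis starts in the endoplasmic reticulum, where serine palmitoyltransferase joins serine to a fatty acid, ceramide synthases add another fatty acid and a desaturase completes ceramide. In the Golgi, ceramide becomes sphingomyelin or glucosylceramide, the root of the gangliosides. Sphingomyelinases and ceramidases run the path backwards to sphingosine, which sphingosine kinases turn into S1P, a ligand of G protein-coupled receptors that guide the movement of immune cells. Microglia take up and digest myelin, which is rich in sphingolipids.

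The counts on genes summed to between 87545868 and 93942161 in the Cre- libraries and to between 93701215 and 110909129 in the Cre+ libraries. Values are given in CPM, the counts of a gene per 1000000 counts of its library, with library sizes scaled by the TMM method, or in FPKM, which divides the CPM by the gene length in kilobases and is used wherever genes are compared with each other. Differences were tested with the quasi-likelihood test of edgeR across 11429 genes above 1 CPM in at least 4 libraries, and a gene was called changed at a Benjamini-Hochberg adjusted p of at most 0.05. Log2 fold changes are Cre+ over Cre- and carry their standard error (SE). The 10 microglial marker genes summed to 6409 to 6687 CPM in Cre- and to 6409 to 6643 CPM in Cre+ libraries, mostly from Cd68 and Trem2. Csf1r was also high, whereas P2ry12, a gene of microglia in the intact brain, was at 0.400 to 1.03 CPM. Aif1 and Tmem119 were scarce too, with means of 2.71 and 2.95 CPM in Cre- and 2.56 and 2.42 CPM in Cre+. Cx3cr1 had means of 9.56 CPM in Cre- and 12.9 CPM in Cre+ and was not called (edgeR adjusted p = 0.113). Itgam was called higher in Cre+ (edgeR adjusted p = 0.0463). Of the markers of other cells, Aldoc and Aldh1l1 of astrocytes, Mbp, Cnp and Mag of oligodendrocytes and Flt1 of endothelium had means between 10.5 and 32.4 CPM, whereas Gfap and Aqp4, Olig2 and Mog, and Cldn5 of the same lists lay below 0.3 CPM in both groups.

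Nr1d1, the targeted gene, was at 2.35, 1.20 and 1.64 CPM in Cre- replicates 1, 2 and 3 and at 1.00, 0.945 and 1.08 CPM in Cre+ replicates 1, 2 and 3. All Cre+ libraries lay below all Cre- libraries, but the transcript was scarce and its log2 fold change of -0.77 (SE 0.25) did not pass the threshold (edgeR adjusted p = 0.0945). Without Cre- replicate 2 it was -0.98 (edgeR adjusted p = 0.0414), and without the other libraries it lay between -0.82 and -0.50 and was not called. The count covers the whole gene, including exons outside the deleted stretch, so it does not measure how many alleles were recombined.

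Of the 37 genes tested, 5 were called changed (13.5%, against 5.07% of all genes tested). The list was chosen with earlier results of these data known, so these shares are a description and not a test. Acer3, Sgms2 and Cers2 rose (against 2.50% of all genes called higher) and S1pr1 and Smpdl3a fell (against 2.56% called lower). The group showed no common direction, with 18 genes above and 19 below a log2 fold change of 0, a median of -0.00054 and 16 genes within 0.1 of 0, beside a median of 0.0023 over all genes tested. In 14 genes (37.8%) the libraries of the groups did not overlap, 5 higher and 9 lower in Cre+. Of all genes tested, 24.0% were so separated, 12.3% higher and 11.7% lower. The plot of each library shows S1pr1 and the scarce Cers4 far to the left in Cre+, and most other genes close to 0. In bulk RNA, less transcript per cell and fewer cells that carry it cannot be told apart.

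**Figure D1:**
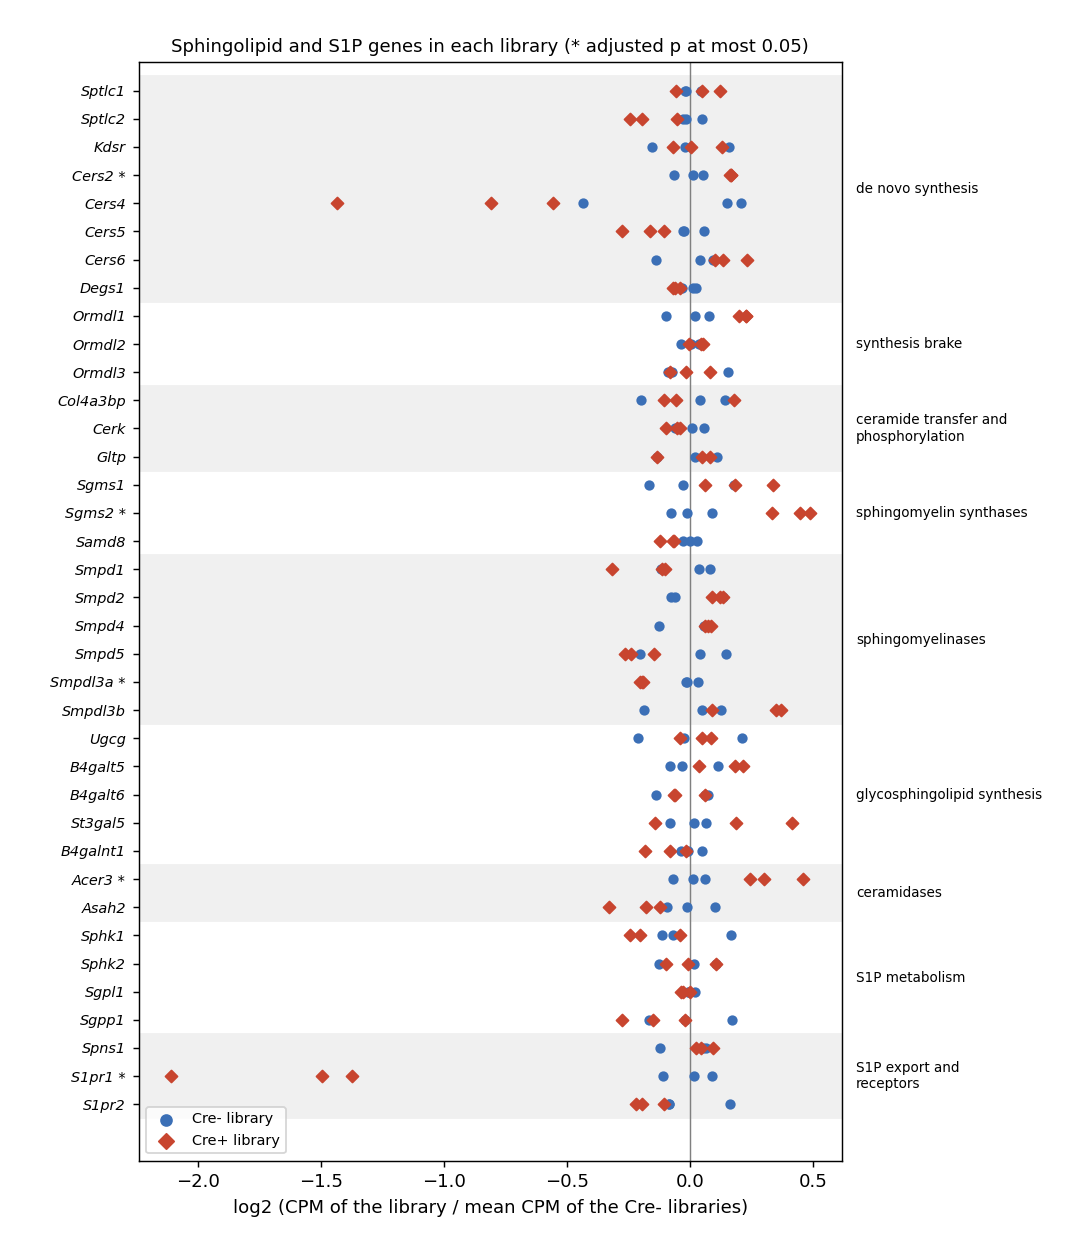
Each point is a library, placed by the log2 of its CPM over the mean CPM of the 3 Cre- libraries, for the 37 genes tested, ordered by branch of the pathway. Blue circles are Cre- and red diamonds Cre+ libraries, and asterisks mark the 5 genes called changed. S1pr1 lies lowest in Cre+ among the genes called, Acer3, Sgms2 and Cers2 lie to the right of 0 and Smpdl3a to the left.

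Per length, the path was expressed unevenly in the Cre- cultures. Degs1, the desaturase that completes ceramide, had the highest level at 179 ± 3.59 FPKM (SD, n = 3), above 97.8% of the genes tested, taking the mean of both groups. Smpdl3a, a secreted relative of acid sphingomyelinase that is known to cleave nucleotides, followed with 115 ± 2.16 FPKM, and then Gltp, a glycolipid transfer protein, with 59.0 ± 4.97 FPKM. Gltp, Sgpl1 (the lyase that degrades S1P) at 56.1 ± 0.594 FPKM and Cers2 at 49.8 ± 2.04 FPKM stood close together, and the ranges of 1 SD around Gltp and Sgpl1 overlapped. At the other end of the tested genes, Asah2 was at 0.199 ± 0.0136 FPKM and Cers4 at 0.169 ± 0.0385 FPKM. The highest transcripts thus belonged to enzymes and a transfer protein, while the receptors S1pr2, at 10.3 ± 1.04 FPKM, and S1pr1, at 6.84 ± 0.471 FPKM, stood in the middle of the list.

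**Figure D2:**
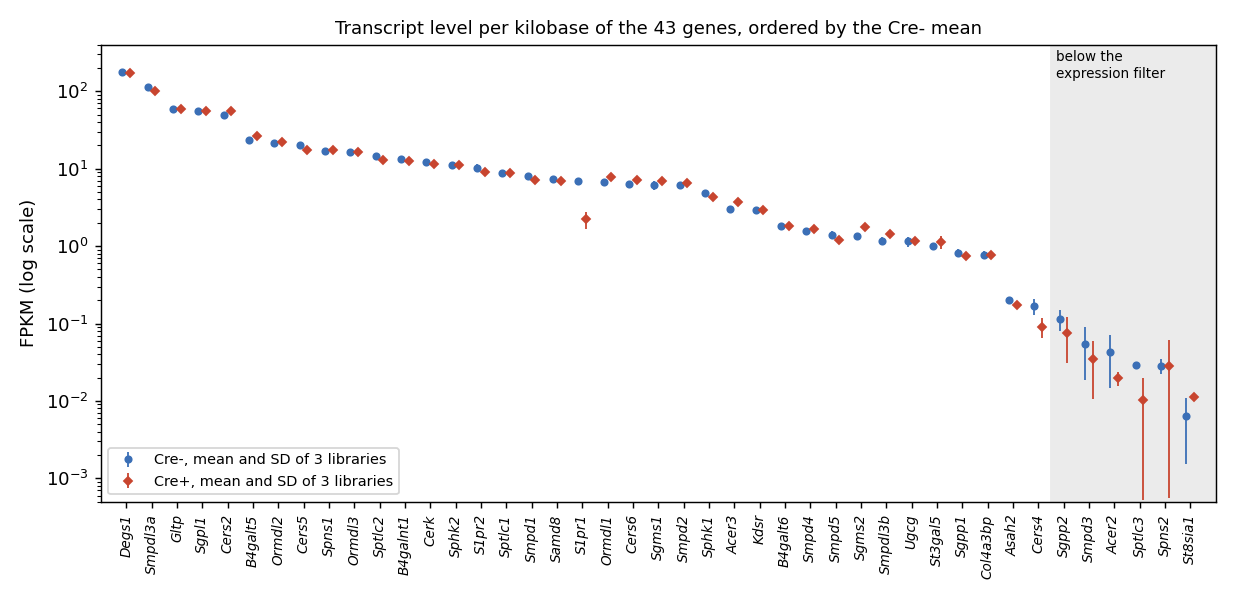
Points are mean FPKM of 3 libraries on a log scale for all 43 genes, with bars of 1 SD (a bar that would reach 0 stops at the lower edge of the plot), Cre- in blue and Cre+ in red, ordered by the Cre- mean. The groups lie side by side for most genes, S1pr1 drops from 6.84 to 2.21 FPKM, and the 6 genes on the grey ground were too low to test.

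The 6 genes below the expression filter were Sptlc3, Smpd3, St8sia1, Acer2, Sgpp2 and Spns2. Sptlc3, an alternative subunit of serine palmitoyltransferase, had 8, 7 and 7 counts in Cre- and 6, 3 and 0 counts in Cre+ replicates 1, 2 and 3, where a count of 0 allows up to 3. Spns2, the S1P exporter of endothelium, had 8 to 12 counts in Cre- and 1 to 25 counts in Cre+ libraries. Smpd3 (neutral sphingomyelinase of neurons and bone), St8sia1 (the synthase of the ganglioside GD3), Acer2 (a Golgi ceramidase) and Sgpp2 (an S1P phosphatase) had at most 52 counts in any library. These counts among libraries of at least 87545868 show a barely detectable transcript, and none was called in the fit without a filter on expression, where their edgeR adjusted p-values were 0.431 to 0.992.

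The first enzyme of synthesis, serine palmitoyltransferase, was represented by Sptlc1 and Sptlc2. Sptlc2, its catalytic subunit, was at 123, 117 and 116 CPM in Cre- and at 114, 100.3 and 104 CPM in Cre+ replicates 1, 2 and 3. The groups did not overlap, but the highest Cre+ library lay close to the lowest Cre- library, and the log2 fold change of -0.16 (SE 0.055) was not called (edgeR adjusted p = 0.113). Without Cre+ replicate 1, the highest of its group, it was -0.22 and called (edgeR adjusted p = 0.0424). Sptlc1 was at 30.3 to 31.7 CPM in Cre- and 29.6 to 33.5 CPM in Cre+ libraries, and Kdsr, the reductase of the next step, at 21.3 to 26.4 and 22.5 to 25.9 CPM. For both of these the groups overlapped.

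Ceramide synthases differ in the length of the fatty acid they attach, and Cers2, which makes very long-chain ceramides, was the main one in these cells. Cers2 was at 185, 190 and 175 CPM in Cre- and at 206, 205 and 205 CPM in Cre+ replicates 1, 2 and 3. The Cre+ libraries were nearly equal and all above the Cre- libraries, which varied more. The rise of 12.05%, a log2 fold change of 0.16 (SE 0.045), sat on the threshold (edgeR adjusted p = 0.04995) and the call was lost whichever of the 6 libraries was left out (edgeR adjusted p = 0.0639 without Cre- replicate 2 and 0.111 to 0.192 without any other), with the size factors of DESeq2 (0.0617) and with ribosomal protein genes removed (0.0508). Cers5, which makes ceramides with palmitate, was at 69.3, 69.2 and 73.4 CPM in Cre- and at 58.2, 65.6 and 63.0 CPM in Cre+ replicates 1, 2 and 3, without overlap. Its log2 fold change was -0.18 (SE 0.059, edgeR adjusted p = 0.0925), so it was not called, though DESeq2 put it past the threshold (0.0410).

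The other ceramide synthases were lower in level. Cers6, which also uses palmitate, was at 59.7, 57.5 and 50.9 CPM in Cre- and 65.8, 60.1 and 61.4 CPM in Cre+ replicates 1, 2 and 3. Its groups were separated by less than the spread within either of them, and its log2 fold change of 0.16 (SE 0.066) was not called (edgeR adjusted p = 0.209). Cers4 was scarce, at 2.30, 2.39 and 1.53 CPM in Cre- and 0.767, 1.18 and 1.41 CPM in Cre+ replicates 1, 2 and 3. Its log2 fold change of -0.89 (SE 0.26) was the lowest of the branch and its groups did not overlap, but the value was not called (edgeR adjusted p = 0.0601) except without Cre- replicate 3, where it was -1.07 (0.0442), in DESeq2 (0.0366) and without a filter on expression (0.0432).

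Taken as shares of the summed FPKM of the 4 synthases, Cers2 made up 65.3% ± 1.08 in Cre- and 69.3% ± 0.680 in Cre+ cultures, and Cers5 26.2% ± 1.53 and 21.8% ± 1.14 (SD, n = 3). Each Cre+ library had a larger share of Cers2 and a smaller share of Cers5 than every Cre- library. An exact permutation test of 3 against 3 libraries cannot give less than p = 0.10, so these shares are given without a test. Cers6 held 8.27% ± 0.531 and 8.74% ± 0.490. The sum of the family was 76.3 ± 1.87 FPKM in Cre- and 80.6 ± 0.631 FPKM in Cre+ cultures.

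Degs1 was at 454, 468 and 472 CPM in Cre- and 451, 445 and 442 CPM in Cre+ replicates 1, 2 and 3. The groups just failed to overlap, and the log2 fold change of -0.06 had a 95% interval of -0.14 to 0.02 (edgeR adjusted p = 0.458). Across the 9 genes of de novo synthesis, 8 were tested, 4 with a value above 0 and 4 below. Of these 8, 6 were separated between groups, 2 higher and 4 lower in Cre+. Over all genes tested, 24.0% were separated, 12.3% higher and 11.7% lower. In the branch 1 of the 8 was called, where 5.07% of all genes tested were called. A branch of 8 genes is too small to set against these shares.

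The ORMDL proteins hold serine palmitoyltransferase in check when ceramide is plentiful. Ormdl1 was at 31.8, 29.2 and 33.0 CPM in Cre- and 35.9, 36.6 and 36.6 CPM in Cre+ replicates 1, 2 and 3. All Cre+ libraries were above all Cre- libraries, with a log2 fold change of 0.22 (SE 0.068) that was not called (edgeR adjusted p = 0.0816), though DESeq2 (0.0357), edgeR's filterByExpr (0.0475) and the fit without a filter (0.0152) put it past the threshold. Ormdl2 and Ormdl3 overlapped between groups, with log2 fold changes of 0.03 and -0.005, and 66.7% of the exonic bases of Ormdl2 are also exons of Dnajc14 on the other strand, whose reads an unstranded library cannot separate.

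None of the 3 genes that move ceramide or glycolipids or phosphorylate ceramide was separated between the groups, too few to set against the 24.0% separated over all genes tested. Col4a3bp, which encodes the ceramide transfer protein CERT that supplies sphingomyelin synthesis, was at 5.54 to 7.01 CPM in Cre- and 5.91 to 7.19 CPM in Cre+ libraries. Cerk, the ceramide kinase, was at 56.0 to 60.8 and 54.5 to 56.9 CPM, and Gltp at 94.6 to 112 and 94.5 to 109.8 CPM. The 95% intervals of their log2 fold changes were -0.28 to 0.30 for Col4a3bp, -0.19 to 0.05 for Cerk and -0.15 to 0.14 for Gltp.

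Sphingomyelin is made from ceramide by Sgms1 in the Golgi and by Sgms2 mainly at the plasma membrane. Sgms2 was at 8.84, 8.23 and 7.88 CPM in Cre- and 11.3, 10.5 and 11.7 CPM in Cre+ replicates 1, 2 and 3. The lowest Cre+ library was above the highest Cre- library, a rise of 34.1% with a log2 fold change of 0.42 (SE 0.11, edgeR adjusted p = 0.0339). The value lay between 0.38 and 0.47 without any single library but stayed past the threshold only without Cre- replicate 1 (edgeR adjusted p = 0.0466), and was 0.0551 without Cre+ replicate 2, 0.0801 without Cre- replicate 2, 0.0974 without Cre+ replicate 1, 0.114 without Cre- replicate 3 and 0.125 without Cre+ replicate 3.

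Sgms1 was at 72.7, 63.0 and 57.2 CPM in Cre- and 81.3, 67.0 and 72.9 CPM in Cre+ replicates 1, 2 and 3, with replicate 1 the highest of each group. The groups overlapped, and the log2 fold change of 0.20 (SE 0.083) was not called (edgeR adjusted p = 0.202). Samd8, whose product makes ceramide phosphoethanolamine rather than sphingomyelin, was at 57.7, 55.5 and 56.6 CPM in Cre- and 54.0, 52.0 and 54.1 CPM in Cre+ replicates 1, 2 and 3. Its groups did not overlap, with a log2 fold change of -0.09 (SE 0.055, edgeR adjusted p = 0.432). Within the family, Sgms2 made up 8.99% ± 0.0644 of the summed FPKM in Cre- and 11.4% ± 0.417 in Cre+ cultures (SD, n = 3), and Samd8 50.0% ± 2.47 and 44.4% ± 1.66, so the gene called changed was also the least abundant of the 3.

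**Figure D3:**
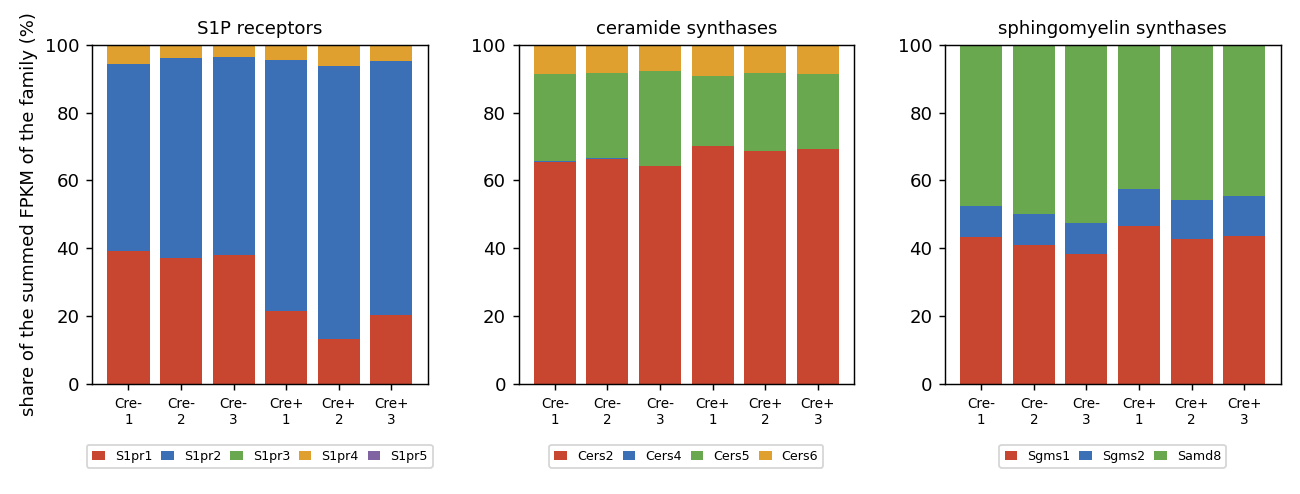
Stacked bars give each gene as a percent of the summed FPKM of its family in each of the 6 libraries, for the S1P receptors, the ceramide synthases and the sphingomyelin synthases. The red share of S1pr1 is smaller in every Cre+ bar than in any Cre- bar, the red share of Cers2 is larger, and the blue share of Sgms2 is larger.

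Sphingomyelin is broken down by Smpd1 in lysosomes, by neutral enzymes such as Smpd2 and Smpd4 elsewhere and by Smpd5, while Smpdl3a and Smpdl3b are named for their likeness to Smpd1. Smpdl3a fell, from 235, 235 and 243 CPM in Cre- to 206, 208 and 207 CPM in Cre+ replicates 1, 2 and 3. Each group was tight and the gap between them was wide beside the spread, giving a decrease of 12.8% and a log2 fold change of -0.20 (SE 0.042, edgeR adjusted p = 0.0124). It was no longer past the threshold when Cre- replicate 3, the highest library, was left out (edgeR adjusted p = 0.0522), with edgeR's filterByExpr (0.0770) and without a filter on expression (0.365, log2 fold change -0.12).

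None of the tested enzymes known to cleave sphingomyelin itself was called, too few genes to set against the 5.07% called over all genes tested. Smpd1 was at 28.7, 27.8 and 25.1 CPM in Cre- and 25.3, 25.1 and 21.8 CPM in Cre+ replicates 1, 2 and 3, so that the groups overlapped slightly, and its log2 fold change was -0.18 (SE 0.083, edgeR adjusted p = 0.258). Smpd2 was at 29.7, 25.7 and 26.0 CPM in Cre- and 29.7, 29.5 and 28.9 CPM in Cre+ replicates 1, 2 and 3. The Cre+ values were at the level of Cre- replicate 1 and above the other two, and the log2 fold change of 0.12 had a 95% interval of -0.04 to 0.27 (edgeR adjusted p = 0.445), with 20.3% of the exonic bases shared with Mical1 on the other strand.

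The remaining genes of this branch showed small or imprecise differences. Smpd4 was at 15.0, 13.1 and 14.9 CPM in Cre- and 15.2, 15.0 and 15.0 CPM in Cre+ replicates 1, 2 and 3. Smpd5 was at 3.07, 2.59 and 3.30 CPM in Cre- and 2.53, 2.696 and 2.48 CPM in Cre+ replicates 1, 2 and 3. Smpdl3b was at 2.43, 2.55 and 2.06 CPM in Cre- and 2.98, 3.03 and 2.49 CPM in Cre+ replicates 1, 2 and 3. All 3 overlapped between the groups, and the 95% interval of the log2 fold change was -0.12 to 0.26 for Smpd4, -0.59 to 0.16 for Smpd5 and -0.12 to 0.66 for Smpdl3b.

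In glycosphingolipid synthesis none of the 5 tested genes was called and the libraries of the groups overlapped in each, a number of genes too small to set against the 5.07% called and 24.0% separated over all genes tested. Ugcg, which makes glucosylceramide, was at 5.20 to 6.96 CPM in Cre- and 5.85 to 6.38 CPM in Cre+ libraries. B4galt5, which with B4galt6 adds galactose to make lactosylceramide, was at 96.8 to 111 and 105 to 119 CPM (log2 fold change 0.15, SE 0.062, edgeR adjusted p = 0.202). B4galt6 was at 9.63 to 11.2 and 10.2 to 11.1 CPM. St3gal5, the synthase of the ganglioside GM3, was at 2.52 to 2.78 and 2.41 to 3.54 CPM, and B4galnt1, which makes GM2 and GD2, at 44.9 to 47.5 and 40.5 to 45.5 CPM. B4galt5 was the main lactosylceramide synthase by transcript, with 23.8 ± 1.69 FPKM against 1.83 ± 0.147 FPKM for B4galt6 in Cre- cultures.

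Ceramidases release sphingosine, and Acer3, an alkaline ceramidase of the endoplasmic reticulum and Golgi with a preference for unsaturated long-chain ceramides, rose. It was at 43.5, 47.7 and 46.0 CPM in Cre- and 62.9, 56.3 and 54.0 CPM in Cre+ replicates 1, 2 and 3. Every Cre+ library was above every Cre- library, with Cre+ replicate 1 standing highest, and the increase was 26.2% (log2 fold change 0.34, SE 0.067, edgeR adjusted p = 0.00815). It was called whichever of the 6 libraries was left out, with values of 0.27 to 0.38, and in all 8 other alternatives. The transcript model of Acer3 shares stretches of at least 100 bases at 95% identity with 84 other genes, the highest of them at 33.4 CPM, and reads from such stretches could have been assigned to either gene or dropped. Samd8, Sphk1 and B4galt6 share such stretches with 45, 84 and 22 other genes, and Sgms2 shares 121 bases at 96.7% identity with Rspry1, which was at 20.0 CPM. Asah2, the neutral ceramidase, was at 2.48, 2.29 and 2.17 CPM in Cre- and 1.84, 2.13 and 2.04 CPM in Cre+ replicates 1, 2 and 3, barely apart, with a log2 fold change of -0.21 (SE 0.19, edgeR adjusted p = 0.603).

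The 3 genes that rose have start sites in the RefSeq promoter table for GRCm38.p6, and the 250 bases before the start site nearest to the gene's start are shown, 5′ to 3′ on the strand of the gene, because the motifs of a transcription factor are commonly sought there. REV-ERBα is known to bind the letters AGGTCA next to an AT-rich stretch, and the clock activators BMAL1 and CLOCK bind CACGTG. Both were searched on both strands, where AGGTCA reads TGACCT on the other strand and the motifs can share the letters CA or TG where they adjoin. Capitals mark a match.
Sgms2, chr3:131491444-131491693, minus strand: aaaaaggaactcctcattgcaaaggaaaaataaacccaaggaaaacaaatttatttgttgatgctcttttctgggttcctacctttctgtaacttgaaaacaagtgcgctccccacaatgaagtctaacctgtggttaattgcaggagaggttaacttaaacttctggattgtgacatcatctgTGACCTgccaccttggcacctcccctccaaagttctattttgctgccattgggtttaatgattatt
Acer3, chr7:98321209-98321458, minus strand: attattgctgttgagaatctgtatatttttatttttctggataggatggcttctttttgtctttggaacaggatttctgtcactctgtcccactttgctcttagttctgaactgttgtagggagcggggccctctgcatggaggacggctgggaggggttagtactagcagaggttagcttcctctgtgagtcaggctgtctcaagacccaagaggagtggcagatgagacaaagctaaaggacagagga
Cers2, chr3:95314940-95315189, plus strand: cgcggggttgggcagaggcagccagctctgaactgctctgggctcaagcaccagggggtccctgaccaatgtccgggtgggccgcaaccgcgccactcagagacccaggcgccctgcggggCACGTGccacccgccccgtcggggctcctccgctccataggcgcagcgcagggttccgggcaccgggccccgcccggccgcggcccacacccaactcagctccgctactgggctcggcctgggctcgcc

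The Sgms2 window held TGACCT with its first letter 66 bases before the start site, the Cers2 window held CACGTG 129 bases before it and the Acer3 window held neither. The letters on either side of the Sgms2 match, catctg and gccacc, were not an AT-rich stretch. Another of the 6 windows of Sgms2, with a start site 2369 bases from the gene's start, held both motifs. Only the motif letters were searched, without the AT-rich stretch. Over the 37 of the 43 genes in the table, with 53 windows, AGGTCA occurred in 14 windows (26.4%) of 11 genes, where 14.0% of all 32851 windows held it. CACGTG occurred in 8 windows (15.1%) of 7 genes, where 6.02% of all windows held it. The 7 genes were Cers2, Cers6, Degs1, Sgms2, Sgpp2, Smpd2 and Sphk1. The 11 genes with AGGTCA were Asah2, Cerk, Cers2, S1pr2, Sgms1, Sgms2, Sgpp2, Smpd1, Sphk1, Spns2 and St8sia1. Of these, Sgpp2, Spns2 and St8sia1 were not tested. Sgms2 and Cers2 were called, Cers2 with its match in another window than the one shown. So few genes cannot be set against the 13.5% of the 37 genes tested or the 5.07% of all genes tested that were called. Several windows can belong to 1 gene. Windows of Sphk1 that overlapped almost wholly each held both motifs, so a site can be counted more than once in these shares. A match in letters is a description and not a measured binding site. Smpd3, Smpd5, Smpdl3a, B4galt6, B4galnt1 and S1pr1 were not searched.

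S1P is made by the sphingosine kinases, returned to sphingosine by phosphatases and destroyed by the lyase Sgpl1. None of the 4 tested genes of this branch was called or separated between the groups. So few genes cannot be set against the 5.07% called and 24.0% separated over all genes tested. Sgpl1 was at 342 to 349 CPM in Cre- and 336 to 345 CPM in Cre+ libraries, with a log2 fold change of -0.02 and a narrow 95% interval of -0.11 to 0.06. Sphk1 was at 21.2 to 25.7 and 19.3 to 22.3 CPM, with a log2 fold change of -0.16 (95% interval -0.36 to 0.03). Sphk2 was at 42.0 to 49.2 and 42.9 to 49.3 CPM, with a value of 0.002 (95% interval -0.15 to 0.16), and 21.9% of its exonic bases are also exons of Dbp or Rpl18. Sgpp1, an S1P phosphatase, was at 4.12 to 5.20 and 3.81 to 4.55 CPM. Spns1, a lysosomal carrier of lysolipids, was at 57.9 to 65.9 CPM in Cre- and 64.0 to 67.1 CPM in Cre+ libraries, with a log2 fold change of 0.05 (95% interval -0.08 to 0.18).

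The largest difference of all 37 genes was in S1pr1, the receptor through which S1P draws lymphocytes out of lymphoid organs and keeps endothelium tight. S1pr1 was at 21.0, 22.1 and 19.3 CPM in Cre- and at 8.03, 4.81 and 7.38 CPM in Cre+ replicates 1, 2 and 3. The highest Cre+ library held less than the lowest Cre- library by a wide margin, and Cre+ replicate 2 was the lowest. The level fell by 67.6%, with a log2 fold change of -1.62 (SE 0.15, 95% interval -1.94 to -1.31, edgeR adjusted p = 6.49e-06). By p-value it ranked 21 among the 11429 genes tested, and it had the 9th lowest log2 fold change. The value lay between -1.77 and -1.43 without any single library and was called in all 14 alternatives.

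Some markers of other cell types were well detected, and some of the scarce ones moved with S1pr1. The 8 markers of fibroblasts and mural cells summed to 1.84 to 2.83 CPM in Cre- and 0.972 to 1.23 CPM in Cre+ libraries. In Cre+, 7 of the 8 had a lower mean, 5 of them without overlap, and each lay below 1 CPM. The 7 neuronal markers summed to 2.93 to 3.82 and 2.06 to 2.16 CPM, all 7 lower in mean and 3 without overlap. The 8 astrocyte markers summed to 44.3 to 48.2 and 42.6 to 48.6 CPM, most of it from Aldoc and Aldh1l1, with Gfap and Aqp4 near 0, 5 of the 8 at a lower mean in Cre+ and Aqp4, Slc1a2 and Gja1 lower without overlap. The 8 oligodendrocyte markers summed to 60.4 to 72.1 and 62.2 to 68.2 CPM, carried by Mbp, Cnp and Mag. Their means were 28.5, 26.2 and 10.5 CPM in Cre- and 28.6, 26.4 and 10.7 CPM in Cre+. Olig2 and Mog were near 0, and Mog and Olig1 were lower without overlap. The 6 endothelial markers summed to 20.9 to 22.9 and 24.3 to 27.9 CPM, higher in Cre+ through Flt1 alone (20.1 and 25.2 CPM on average, edgeR adjusted p = 0.0245), while Cldn5 was near 0 and Pecam1 was lower in every Cre+ library. Every marker that was lower without overlap lay below the expression filter, and 11.7% of all genes tested were lower without overlap. The part of other cells in the fall of S1pr1 was not tested.

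S1pr2, a receptor that restrains cell migration, was at 77.3, 91.6 and 77.1 CPM in Cre- and 71.4, 76.0 and 70.4 CPM in Cre+ replicates 1, 2 and 3. The groups were only just apart, with Cre- replicate 2 standing high, and the log2 fold change of -0.18 (SE 0.067) was not called (edgeR adjusted p = 0.161). Of the receptors outside the 43 genes, S1pr4 made up 4.24% ± 1.06 of the summed FPKM of the 5 S1P receptors in Cre- and 5.11% ± 0.975 in Cre+ cultures, and S1pr3 and S1pr5 were below the expression filter. S1pr1 went from 38.2% ± 1.05 of this sum to 18.5% ± 4.52 and S1pr2 from 57.4% ± 1.99 to 76.2% ± 3.60 (SD, n = 3), without overlap between the groups. The sum itself was 17.9 ± 1.50 FPKM in Cre- and 11.95 ± 0.179 FPKM in Cre+ cultures, so the larger share of S1pr2 stood beside a level of S1pr2 that was not higher.

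**Figure D4:**
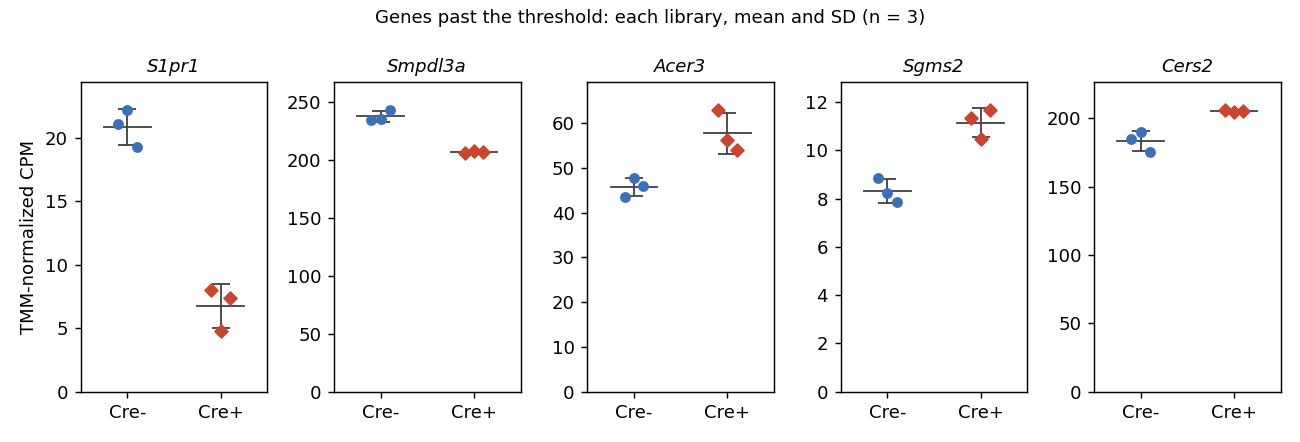
Points are the TMM-normalized CPM of each library for the 5 genes called changed, on axes that start at 0, with the mean (long bar) and SD (short bars) of 3 libraries, Cre- in blue and Cre+ in red. S1pr1 falls from 20.8 to 6.74 CPM on average, while the other 4 genes shift by between 12.05% and 34.1% in either direction.

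The 5 genes called changed lie apart in the genome (GRCm38 coordinates of the annotated gene). S1pr1 (ENSMUSG00000045092) is at chr3:115710433-115715072 and Sgms2 (ENSMUSG00000050931) at chr3:131318985-131491411, both on the minus strand. Cers2 (ENSMUSG00000015714) is at chr3:95314791-95323599 on the plus strand, where 5.96% of its exonic bases also lie in exons of genes on the other strand. Smpdl3a (ENSMUSG00000019872) is at chr10:57794335-57811830 on the plus strand and Acer3 (ENSMUSG00000030760) at chr7:98206389-98321208 on the minus strand. No exonic base of S1pr1, Sgms2, Smpdl3a or Acer3 is shared with another annotated gene, and all counts are sums over the exons of a gene, so isoforms were not distinguished.

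A further 45 genes of the wider pathway, also chosen with earlier results of these data known, were looked up, and 32 of them were tested. Of these 32, 3 were called (9.38%, against 5.07% of all genes tested), 2 higher and 1 lower, and 16 had a log2 fold change above and 16 below 0, with a median of -0.01. Plpp3, a lipid phosphate phosphatase at the cell surface that dephosphorylates S1P and lysophosphatidic acid, was at 67.8, 67.5 and 70.4 CPM in Cre- and 51.7, 44.6 and 52.3 CPM in Cre+ replicates 1, 2 and 3. The groups were well apart, with Cre+ replicate 2 the lowest as for S1pr1, and Plpp3 fell with a log2 fold change of -0.47 (SE 0.065, edgeR adjusted p = 0.000509), and was called whichever library was left out.

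Elovl5, an elongase of polyunsaturated fatty acids, was at 76.4, 75.3 and 71.3 CPM in Cre- and 84.9, 87.3 and 83.0 CPM in Cre+ replicates 1, 2 and 3. Gm2a, the activator protein that presents the ganglioside GM2 to lysosomal hexosaminidase, was at 683, 730.3 and 719 CPM in Cre- and 813, 752 and 824 CPM in Cre+ replicates 1, 2 and 3. Both rose slightly and without overlap, Elovl5 by a log2 fold change of 0.19 (SE 0.052, edgeR adjusted p = 0.0436) and Gm2a by 0.16 (SE 0.045, edgeR adjusted p = 0.0473). Elovl5 lost its call whichever of the 6 libraries was left out (edgeR adjusted p = 0.0695 to 0.159), and Gm2a kept its call only without Cre+ replicate 2 (0.0269, against up to 0.186 without another library). Of the 13 genes of lysosomal breakdown, all of which were tested, Gm2a was the one called (7.69%, near the 5.07% of all genes tested), 5 were separated between the groups (38.5%, against 24.0%), and Asah1, the acid ceramidase, had a log2 fold change of 0.07 (SE 0.041, edgeR adjusted p = 0.398). The 5 tested genes of further glycosphingolipid synthesis gave no call, a number of genes too small to set against the 5.07%.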

How the data were processed

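Gene counts of 6 libraries were deposited as whole numbers of reads per Ensembl gene, unnormalized. The deposited CPM, FPKM and gene length columns were made by the authors from these counts, and only the lengths were used for the FPKM computed here. The submitters' processing notes name STAR 2.7.9a and featureCounts 2.0.3 on GRCm38, whereas the methods of the paper name other versions of both. After removal of 356 rRNA genes, the 11429 genes that exceeded 1 CPM in at least 4 libraries entered a fit with edgeR 4.0.16 (R 4.3.3; TMM, quasi-likelihood, no covariates, Benjamini-Hochberg threshold 0.05). The SE is the log2 fold change over the square root of F. The coefficient of variation between cultures, from the common dispersion, was 10.0%. On simulated data for Cre+ against Cre- with 11429 genes, the test recovered 94 of 94 genes changed by a log2 fold of 1, 69 of 98 changed by 0.5, and called 9 unchanged genes. The simulation gave every gene the same dispersion. The 43 genes, the branches, the further pathway genes and the markers were chosen with earlier results of these data known. Values in every library were given for genes called or not overlapping and for the sphingomyelin enzymes surveyed in the study. Gene symbols and types came from GENCODE M21 (55227 of 55487 genes matched) and positions from the coordinates deposited with the counts. Promoters came from RefSeq GRCm38.p6 and similar sequences from blastn 2.17.0. Alternatives were DESeq2 1.42.0 and its size factors, limma 3.58.1 voomWithQualityWeights, library totals, other filters, removal of ribosomal protein genes, the replicate number as a block, and leaving out each library.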

Additional observations from a re-analysis of the deposited data

How the results depend on the processing

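No member of the pathway changed direction past the threshold, and values that changed sign (33 in 12 genes) belonged to genes with a log2 fold change of at most 0.0655 in size. S1pr1 and Acer3 were called under all 14 alternatives. The count of all genes called was 890 of 11429 tested with DESeq2 and 1528 of 43842 without a filter on expression, against 579 of 11429. Of the pathway, 4 of 37 genes were called lower with DESeq2 (478 of all 11429) and 1 of 41 with filterByExpr (435 of 19507), against 2 of 37 (293 of 11429). Without a filter, 7 of 43 were called higher (851 of all 43842), with Cers6, Ormdl1, Sgms1 and B4galt5, against 3 of 37 (286 of 11429). Without a filter the median log2 fold change of all genes moved by 0.08 and that of the pathway was 0.058. The further pathway genes called were 1 with the size factors of DESeq2 (559 of all 11429 genes), 5 with DESeq2 and 6 without a filter, against 3. With the replicate number as a block, 1 pathway gene was called higher, 1 further gene was called and 430 genes in all, and Sgms2 (adjusted p = 0.0563) and Cers2 (0.102) were lost. Libraries of the same number did not deviate together (r = 0.014, -0.021 and -0.044). With 3 libraries a group, this cannot show whether cultures of the same number share a litter or culture day, which the labels do not say. Without Cre- replicate 2, Nr1d1 was at -0.98 (adjusted p = 0.0414). Leaving out each library gave -0.98 to -0.50 for Nr1d1, 317 to 448 genes called, a pathway median of -0.048 to 0.0054, 1 to 2 pathway genes called higher and 2 to 3 lower, 15 to 22 not overlapping and 1 to 2 further genes called, with fewer samples in each fit. The cause of the other shifts was not tested. With 3 cultures a group, changes of a log2 fold of 0.5 or less can be missed, and so can larger ones in scarce genes. Estimates of -0.89 for Cers4 and -0.77 for Nr1d1 were not called.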
